A study of Mus musculus with 6 samples.

Results

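The genes described here supply the MHC class I pathway: the class I chains H2-K1 and H2-D1, their light chain B2m, the peptide transporter subunits Tap1 and Tap2, the loading factor Tapbp, the immunoproteasome subunits Psmb8, Psmb9 and Psmb10, and the transcriptional regulator Nlrc5. They were taken by gene symbol, 10 genes of 32291 distinct symbols on the array, and 9 of them were found under the deposited symbol on 14 probes. Nlrc5 was found on 1 further probe, deposited under AI451557, a synonym in the RefSeq gene table, which gave 15 probes in all. The genes were selected on the intensity difference between the genotypes, Klf4-null minus wild type, in these same arrays, so their own values are given as a description. How many of their probes were past the threshold of the fit over all probes is stated as a count only, and p-values are printed only for other genes.

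The comparison was between Klf4-null mouse embryonic fibroblasts (Klf4 -/-, 3 arrays) and wild-type ones (Klf4 +/+, 3 arrays). Klf4 is a transcription factor that binds DNA through zinc fingers. Cells of both groups were labelled as C57Bl/6 with an age of 13 days and were grown in serum-containing medium to near confluence, and no interferon or other agent was named. Replicates are numbered in the labels without mention of separate cultures or embryos, so the variation behind each p-value is that among these arrays and could be purely technical. How the gene was disrupted was not given in the sources used here.

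Class I molecules display short peptides from inside the cell to cytotoxic T cells. Peptides are cut by the proteasome, and interferon replaces its catalytic subunits with the immunoproteasome subunits. The peptides are pumped into the endoplasmic reticulum by the Tap1-Tap2 dimer and loaded with the help of tapasin onto a heavy chain paired with beta-2-microglobulin. In unstimulated fibroblasts the pathway is known to run at a low level, and interferon-gamma raises it through factors that include Irf1 and Nlrc5. Nlrc5 acts on class I promoters with the RFX, CREB and NF-Y factors bound at the adjacent X1, X2 and Y boxes.

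Promoter sequences of H2-D1, H2-K1, the further class I chain H2-M3, B2m, and the stretch shared by Tap1 and Psmb9 are shown. They hold letters that match the short X2 and Y box motifs given below, which does not show that a match is a working box. They were picked after the matches were seen, and H2-K2 and H2-Q5, class I genes whose probes were also lower in Klf4-null cells, had no window at hand. Windows of 300 bases (250 before and 50 after the RefSeq start site, GRCm38.p6) were at hand for 8 of the 10 genes, not for Tap2 and Nlrc5. Capitals mark matches on either strand to an interferon regulatory factor element (GAAA, any 2 bases, GAAA), an NF-kappaB site (GGGA, any base, T, any 2 bases, CC), the X2 box core (TGACG) and the Y box (ATTGG). Each sequence is read from 5′ to 3′ on the strand of its gene.
H2-D1, chr17:35262844-35263143, plus strand: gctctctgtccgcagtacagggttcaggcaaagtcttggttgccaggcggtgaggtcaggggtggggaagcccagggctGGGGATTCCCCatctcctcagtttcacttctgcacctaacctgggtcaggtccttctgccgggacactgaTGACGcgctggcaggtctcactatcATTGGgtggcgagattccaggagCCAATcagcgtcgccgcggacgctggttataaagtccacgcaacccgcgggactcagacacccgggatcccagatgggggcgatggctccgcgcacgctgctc
H2-K1, chr17:34000298-34000597, minus strand: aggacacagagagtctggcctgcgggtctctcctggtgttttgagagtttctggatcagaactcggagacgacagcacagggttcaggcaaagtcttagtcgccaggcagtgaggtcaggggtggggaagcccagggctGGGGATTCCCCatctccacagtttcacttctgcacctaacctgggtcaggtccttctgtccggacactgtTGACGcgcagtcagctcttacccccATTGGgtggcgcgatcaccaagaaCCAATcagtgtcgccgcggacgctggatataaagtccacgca
H2-M3, chr17:37269984-37270283, plus strand: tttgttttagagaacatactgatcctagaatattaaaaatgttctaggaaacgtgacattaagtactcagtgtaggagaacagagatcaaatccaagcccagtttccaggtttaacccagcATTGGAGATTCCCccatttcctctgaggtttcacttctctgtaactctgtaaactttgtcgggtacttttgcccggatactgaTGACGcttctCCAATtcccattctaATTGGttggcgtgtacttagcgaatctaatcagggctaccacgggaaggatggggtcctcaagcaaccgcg
B2m, chr2:122147437-122147736, plus strand: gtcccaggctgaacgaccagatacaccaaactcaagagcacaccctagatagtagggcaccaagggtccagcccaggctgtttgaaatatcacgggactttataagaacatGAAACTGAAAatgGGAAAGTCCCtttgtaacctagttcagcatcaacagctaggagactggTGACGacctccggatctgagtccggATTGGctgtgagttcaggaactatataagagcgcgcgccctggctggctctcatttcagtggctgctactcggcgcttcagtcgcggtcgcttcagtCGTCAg
Tap1, chr17:34187306-34187605, plus strand: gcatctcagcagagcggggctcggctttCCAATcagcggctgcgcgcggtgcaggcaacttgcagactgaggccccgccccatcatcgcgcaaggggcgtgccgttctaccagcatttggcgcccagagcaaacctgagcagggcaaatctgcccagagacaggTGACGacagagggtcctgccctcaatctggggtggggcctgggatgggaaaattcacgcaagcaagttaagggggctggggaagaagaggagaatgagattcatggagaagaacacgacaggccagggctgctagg

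The 3 promoters of H2-D1, H2-K1 and B2m carried TGACG followed by ATTGG on the same strand, with 20 bases between them. This spacing was noticed in these windows and then counted, and 31 of 32851 promoter windows in the table held it (0.094%). Among genes with H2 symbols it was found in 3, H2-D1, H2-K1 and the class I chain H2-M3, which presents formylated peptides. How many genes with H2 symbols had a window was not counted. H2-K1 had a further, overlapping window from another start site, chr17:34000284-34000583, which also held the spacing and is among the 31. Aligned with gaps, the H2-D1 and H2-K1 windows shared 214 identical bases, 71.3% of the 300 in a window. These windows cover the same stretch only in part, with the X2 core at -101 in H2-D1 and -41 in H2-K1. The identity within that stretch is therefore higher. Other pairs among the windows of the 8 genes and H2-M3 gave 49% to 59% by this measure. Both H2-D1 and H2-K1 held a symmetric NF-kappaB match that reads on both strands. B2m was the only gene of the 8 with a match to the interferon regulatory factor element, which 3.44% of all windows held. The NF-kappaB match was present in 3 of the 8 genes against 4.16% of all windows, the X2 core in 5 against 20.8%, and the Y box in 6 against 37.4%. The windows of Tap1 and Psmb9, which are transcribed away from each other, share 275 bases, so their matches are the same ones. In the Tap1 window the Y box match, at -222 to -218, lies before the X2 match, at -86 to -82, and on the other strand. Psmb8 and Psmb10 had no match to these 4 motifs. The CACCC box, a sequence contacted by Kruppel-like factors (CACCC, on either strand), was found in 7 of the 8 genes and in 57.5% of all windows, and the GC box (GGGCGG) in 3 of the 8 and in 35.7%. In H2-D1 and H2-K1 a CACCC match overlaps the Y box. These matches describe letters in a window and are not evidence of binding.

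**Figure D1:**
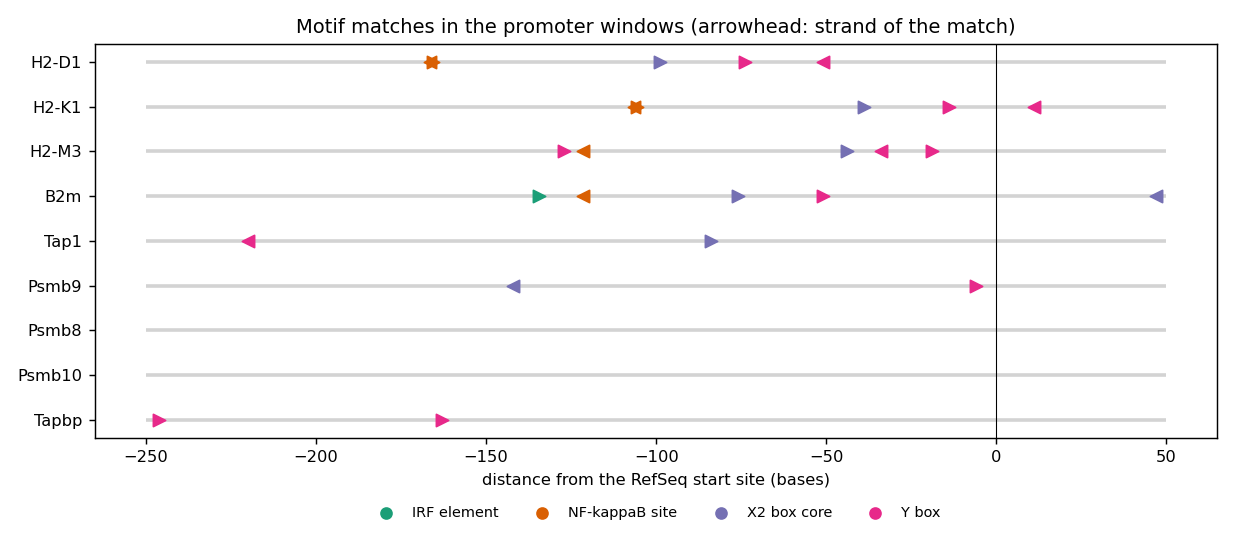
Positions of motif matches in the promoter windows of 8 class I pathway genes and H2-M3, in bases from the RefSeq start site on the horizontal axis, 1 line per gene. Colours give the motif and arrowheads the strand of the match. In H2-D1, H2-K1, H2-M3 and B2m an X2 core is followed by a Y box at the same spacing.

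Values are normalized probe intensities on a linear scale, and a probe was tested when it lay above an estimated background floor, at an intensity of 54.0 to 54.2, on at least 3 of the 6 arrays. Such probes numbered 21823 of 46621. Arrays correlated at 0.9957 to 0.9978 within Klf4-null cells, at 0.9950 to 0.9960 within wild type and at 0.9470 to 0.9513 between the groups. Klf4 was read by 3 probes. Of these, ILMN_1241903 and ILMN_1221264, gave 39.7 to 46.8 and 41.3 to 45.4 in Klf4-null cells, not above background, against 95.6 to 102.8 and 63.2 to 77.99 in wild type, while ILMN_2593684 gave 702 to 737 against 380 to 494. The labels do not place these probes against the disruption, and the rise of the third probe goes against the other 2.

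The defining fibroblast markers did not move together. Thy1, a surface glycoprotein of many fibroblasts, gave 48.8 to 49.8 in Klf4-null cells, not above background, against 2975 to 3556 in wild type, and fell at least 60.9-fold (adjusted p = 8.4e-15 by limma). Pdgfra, a growth factor receptor of mesenchymal cells, fell 1.80-fold on its brightest probe. Of the collagens, Col3a1, Col1a1 and Col5a1 rose 5.65-fold, 2.10-fold and 1.26-fold, while Col1a2 fell 1.26-fold (adjusted p = 0.014 by limma). Vim, an intermediate filament of mesenchymal cells, did not pass (log2 0.00). Of 10 tested markers 3 rose, 3 fell and 4 did not pass, and their part in the class I values below was not tested.

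Of the 15 probes of the class I genes, 11 from 9 genes were tested, and Tap1 was the gene without a tested probe. In the fit over all probes, 7 of the 11 were past an adjusted p of 0.05 by limma, all 7 lower in Klf4-null cells, where 38.9% of all tested probes were past it, 19.9% lower and 19% higher. Since the genes were chosen with this contrast in view, nothing is read from that count. The probes past it belonged to H2-D1, H2-K1, Tap2, Psmb9 and Psmb10, and those of B2m, Tapbp, Psmb8 and Nlrc5 were not past it. In bulk samples, a lower level in every cell and a smaller share of cells with the transcript cannot be told apart.

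H2-D1 and H2-K1 encode classical class I heavy chains, the polymorphic part that holds the peptide. The brighter H2-D1 probe, ILMN_2462745, gave 1403, 1245 and 1048 in Klf4-null cells and 3074, 2714 and 3556 in wild type. Its mean was 1232 ± 178 against 3114 ± 423 (SD, n = 3 each), a log2 difference of -1.34 (SE 0.12). The groups did not overlap, the highest Klf4-null array lying below the lowest wild-type one. The other H2-D1 probe, ILMN_2476267, gave 1458, 1130 and 977 in Klf4-null cells and 2594, 2612 and 3221 in wild type, a log2 difference of -1.25 (SE 0.13). Both probes ranked the arrays within Klf4-null cells in the same order, and both were highest on wild-type array 3.

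H2-K1 was much dimmer. Its 1 probe gave 67.6, 73.4 and 92.8 in Klf4-null cells and 197, 205 and 165 in wild type, with means of 77.9 ± 13.2 and 189 ± 21.4 and a log2 difference of -1.29 (SE 0.12). The groups did not overlap. Within each group the order of the arrays was not that of H2-D1: H2-K1 was highest on Klf4-null array 3 and lowest on wild-type array 3, where H2-D1 was lowest and highest. Class I heavy chain genes are close copies of each other, and the probe sequences were not in the files used here, so signal shared between H2 genes is possible and the naming of a single chain is uncertain. The difference in brightness between probes is not a difference in level between genes.

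B2m encodes beta-2-microglobulin, the constant light chain without which class I molecules do not reach the surface. Its bright probe gave 8749, 8294 and 7443 in Klf4-null cells and 7478, 6983 and 7031 in wild type. The means were 8162 ± 663 and 7164 ± 273 (SD, n = 3 each) and the log2 difference was 0.19 (SE 0.08). Here the groups overlapped, as Klf4-null array 3 lay below wild-type array 1. The light chain was thus the only chain of the 3 that was not lower in Klf4-null cells by its measured mean. A second B2m probe was above background on no array.

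Tap2, a subunit of the transporter dimer, showed the widest difference of the 15 probes. It gave 41.6, 53.96 and 48.2 in Klf4-null cells, none above background, and 548, 525 and 436 in wild type. It was therefore at least 9.25-fold lower in Klf4-null cells, with means of 47.9 ± 6.16 and 503 ± 59.01 and a log2 difference of -3.39 (SE 0.11). The 1 probe of Tap1, its partner, lay at the edge of detection. It gave 39.3, 47.4 and 41.9 in Klf4-null cells and 53.2, 49.9 and 61.3 in wild type, where 1 of 3 arrays was above background, so it was not tested. The groups did not overlap, at values close to the floor. A dim probe does not show that a transcript is scarce: the only probe of Calr, an abundant chaperone of the endoplasmic reticulum, was above background on no array.

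Tapbp encodes tapasin, which holds the empty class I molecule at the transporter. Its probe gave 78.3, 79.3 and 75.5 in Klf4-null cells and 72.5, 69.8 and 68.2 in wild type, a log2 difference of 0.15 (SE 0.08). The Klf4-null arrays all lay above the wild-type ones, by a small margin and at values not far above the floor. Of all tested probes, 47.3% did not overlap between the groups in one direction or the other, and 25% did not overlap and were lower in Klf4-null cells. Of the 11 tested class I probes, 7 were lower without overlap and 1, that of Tapbp, higher. The genes were chosen on this difference, so nothing is read from this count either. Tap2 and Psmb9 were above background on wild-type arrays only, so the filter fixed their side.

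The immunoproteasome subunits Psmb8, Psmb9 and Psmb10 replace the constitutive catalytic subunits when interferon is present. Psmb9 was below background on every Klf4-null array, at 44.9, 46.95 and 47.2, and gave 120, 134 and 107 in wild type, so it was at least 2.22-fold lower in Klf4-null cells (log2 difference -1.37, SE 0.09). Psmb10 was read by 2 bright probes. ILMN_1259510 gave 560, 559 and 576 in Klf4-null cells and 841, 924 and 743 in wild type, a log2 difference of -0.56 (SE 0.09), and ILMN_2757870 gave 798, 808 and 742 against 1038, 1070 and 894, a difference of -0.35 (SE 0.09). Neither Psmb10 probe overlapped between the groups. Psmb8 could not be followed: 2 of its 3 probes were above background on no array, and the third gave 54.7, 51.05 and 56.6 in Klf4-null cells and 56.7, 54.7 and 50.04 in wild type (log2 difference 0.01, SE 0.08).

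Nlrc5, the class I transactivator, lay just above background in both groups. Its probe gave 62.7, 58.6 and 55.7 in Klf4-null cells and 61.7, 59.4 and 60.2 in wild type, a log2 difference of -0.04 (SE 0.08), and the groups overlapped.

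**Figure D2:**
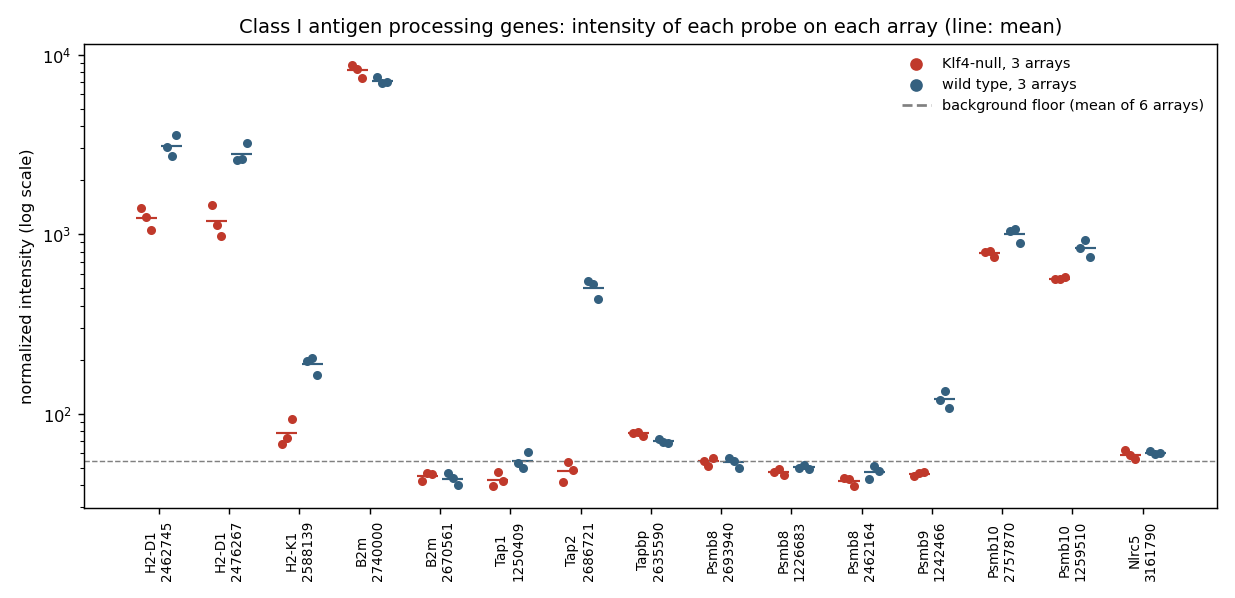
Normalized intensity (log axis) of each of the 15 probes of the 10 class I genes on each array, Klf4-null left of wild type, with a line at the mean of 3 arrays and a dashed line at the background floor. H2-D1, H2-K1, Tap2, Psmb9 and Psmb10 are lower on all Klf4-null arrays, the bright B2m probe overlaps between the groups, and Tap1, Psmb8 and Nlrc5 sit near the floor.

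Tap1, Tap2, Psmb8 and Psmb9 lie side by side in the H2 complex on mouse chromosome 17, with H2-K1 farther out on the Psmb9 side, and the 12 nearest other protein-coding genes on each side were examined. Of these 24 genes 14 were tested, each by its brightest probe. Beside the block, the chaperones of class II loading fell: H2-DMb1 and H2-DMb2, which encode beta chains of the H2-M peptide editor, and H2-DMa, its alpha chain. In all, 6 of the 14 fell, 1 rose and 7 did not pass, with a median log2 fold change of -0.09. Over all 16212 genes tested, 39.9% passed, 20.6% lower and 19.3% higher, and the median was -0.03.

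H2-DMb2 gave 66.4, 61.1 and 62.4 in Klf4-null cells and 360, 377 and 362 in wild type, and fell 5.79-fold (log2 -2.53, SE 0.08, adjusted p = 6.1e-12 by limma). H2-DMb1, its close copy, gave 50.1, 53.2 and 58.1 in Klf4-null cells, where 1 of 3 arrays was above background, and 349, 337 and 282 in wild type (log2 -2.58, SE 0.10, adjusted p = 5.4e-11). The 2 genes are similar enough for shared probe signal, so they may not be independent readings. H2-DMa fell 1.49-fold, to 65.01 ± 11.2 against 96.1 ± 6.39 (adjusted p = 0.00099). Farther out on the Psmb9 side, H2-Ke6, a mitochondrial steroid and fatty acid dehydrogenase, fell 2.12-fold (adjusted p = 1.5e-06) and the retinoid receptor Rxrb fell 1.33-fold on its brightest probe (adjusted p = 0.0084), while its other 2 tested probes did not pass. Ring1, a Polycomb ubiquitin ligase, rose at least 2.24-fold, with 121 ± 7.01 in Klf4-null cells against 49.3 ± 4.62 in wild type, which is background (adjusted p = 4.2e-08).

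On the Tap2 side Notch4, a receptor of endothelial cells, fell 2.32-fold (71.5 ± 4.63 against 166 ± 12.2, adjusted p = 5.5e-08), and H2-Ob (log2 fold change -0.18), H2-Eb2 (0.03) and Gpsm3 (0.01) did not pass. The genes that fell were interspersed along the chromosome with genes such as the zinc transporter Slc39a7 (0.10) that did not pass. The bromodomain gene Brd2 did not pass on its brightest probe (0.14), but another of its probes fell, with 493 ± 43.3 against 633 ± 64.7 (adjusted p = 0.0089). Of the class II list, 5 of 10 genes were tested, the 3 H2-DM genes above fell and the other 2 did not pass (median -0.58). The antigen-presenting chains H2-Aa, H2-Ab1 and H2-Eb1 had no tested probe. The count of neighbours passing was 4 when every array had to be above background, which excludes H2-DMa, H2-DMb1 and Ring1 by construction.

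**Figure D3:**
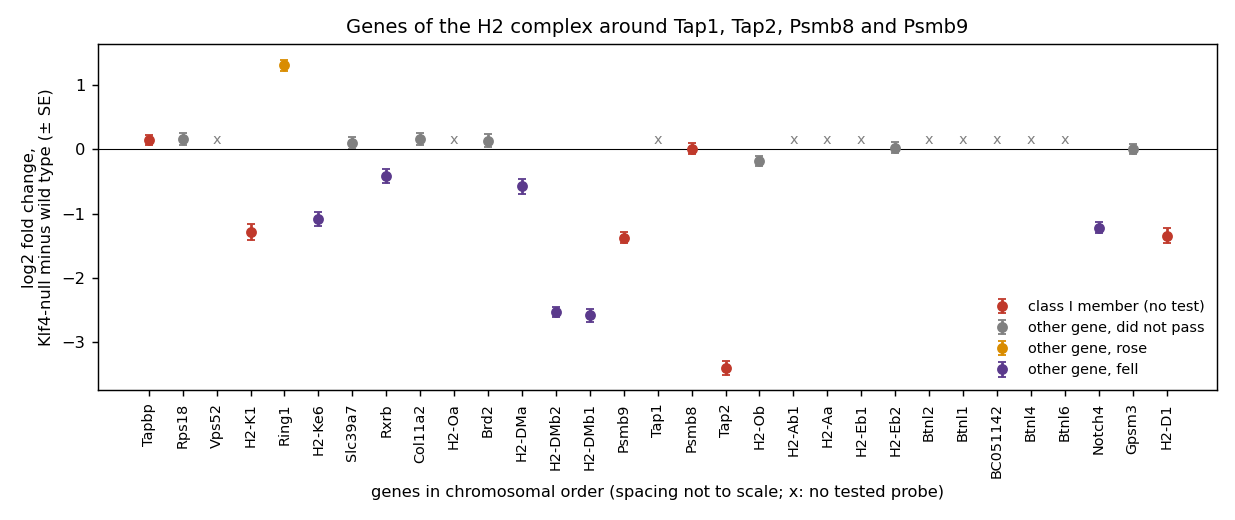
Log2 fold change (Klf4-null minus wild type, ± SE) of genes in their order along mouse chromosome 17, with spacing not to scale and with Tapbp and H2-D1 set at the ends although further genes lie before H2-D1 and after Tapbp. Red points are class I genes described without a test, purple genes fell, orange rose, grey did not pass, and an x marks genes with no tested probe. The H2-DM genes next to Psmb9 lie near -2.5 for both beta chains, and Tap2 lies lowest.

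Over 10 lists of 135 other genes that supply or control the class I pathway or share its inducers, 90 genes were tested, of which 22 rose, 25 fell and 43 did not pass, with a median log2 fold change of -0.02. Of these genes 52.2% passed, where 39.9% of all genes did. The lists were chosen with earlier results of these data known, so nothing is read from that difference. The H2-DM genes counted here are also among the neighbours above. The share by list ran from 16.7% of 6 cytosolic peptidases to 75% of 4 class I-like molecules. Of the other H2 class I chains, 8 of 26 were tested, of which 3 fell, 1 rose and 4 did not pass (median -0.16). H2-M3, whose promoter is printed above, fell 2.70-fold, with 64.1, 66.8 and 67.7 in Klf4-null cells against 201, 148 and 191 in wild type (log2 -1.43, SE 0.11, adjusted p = 9.0e-08). H2-K2, which RefSeq annotates as a transcribed pseudogene, fell 1.84-fold (575 ± 82.04 against 1052 ± 50.3, adjusted p = 9.4e-06), and the nonclassical chain H2-Q5 fell 1.58-fold on its brighter probe and at least 1.60-fold on the other. H2-T10, a ligand of gamma-delta T cells, rose 1.51-fold (80.8 ± 6.72 against 53.4 ± 5.31, adjusted p = 0.00016), with 1 of 3 wild-type arrays above background. The second H2-T10 probe did not pass, with 69.03 ± 1.39 against 59.8 ± 5.90 (adjusted p = 0.069). Shared signal between these copies is possible, as for H2-K1 and H2-D1.

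Of 4 tested class I-like molecules encoded outside the H2 complex, 2 were lower, 1 was higher and the other did not pass (median -0.35). Mr1, which presents vitamin B metabolites to innate-like T cells, fell 2.49-fold, to 63.6 ± 5.22 in Klf4-null cells against 158 ± 8.70 in wild type (adjusted p = 2.4e-08), and its second probe fell 2.10-fold. The Fc receptor Fcgrt, which recycles IgG and albumin, fell 1.59-fold (647 ± 65.3 against 1033 ± 155, adjusted p = 0.00027). Cd1d1, which presents lipids, had a log2 change of 0.22 (adjusted p = 0.045) and did not pass in 6 of the 11 alternative fits.

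Of 10 tested genes of folding, translocation and loading in the endoplasmic reticulum, 6 rose, 1 fell and 3 did not pass, and the list's median log2 fold change was 0.38. The chaperone Hspa5 rose 1.80-fold, to 417 ± 23.1 in Klf4-null cells against 233 ± 28.3 in wild type (adjusted p = 6.6e-06). Sec61a1, the channel of the translocon, rose 1.69-fold (adjusted p = 0.00011), the glucosidase subunit Ganab 1.68-fold (adjusted p = 0.00042) and the oxidoreductase P4hb 1.39-fold (adjusted p = 0.00048). Pdia3, the thiol oxidoreductase that pairs with tapasin in the loading complex, rose 1.28-fold, with 5153 ± 336 against 4035 ± 383 (adjusted p = 0.0058). The tapasin-related editor Tapbpl did not pass (log2 0.01 on its brightest probe), and the trimming peptidase Erap1 was above background on no array.

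Of 11 tested genes of the constitutive proteasome core, 2 rose, 1 fell and 8 did not pass (median -0.15). Psmb5, the subunit that Psmb8 replaces, rose 1.39-fold, with 4261, 3756 and 3797 in Klf4-null cells and 2725, 3279 and 2552 in wild type (log2 0.47, SE 0.10, adjusted p = 0.0017). Psmb7, the subunit that Psmb10 replaces, gave 0.11 (SE 0.09, adjusted p = 0.40) on its brightest probe, and the counterpart of Psmb9, Psmb6, had no probe under that name. Psma4 rose 1.25-fold (adjusted p = 0.0030), and Psmb2 gave -0.27 (adjusted p = 0.026), which did not pass without Klf4-null replicate 1, wild-type replicate 1 or wild-type replicate 2.

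Of 9 tested factors that activate or assemble the proteasome, 5 fell, 1 rose and 3 did not pass, with a median log2 fold change of -0.47. Pomp, the maturation factor used by both kinds of proteasome, fell 1.55-fold, with 7829, 7933 and 8137 in Klf4-null cells against 12842.5, 12914 and 11308 in wild type (adjusted p = 2.5e-05). The inhibitor subunit Psmf1 fell 1.55-fold (adjusted p = 0.00066), the assembly chaperones Psmg2 and Psmg1 fell 1.42-fold (adjusted p = 0.0015) and 1.39-fold (adjusted p = 0.00060), and Psme1, an interferon-induced subunit of the PA28 activator, fell 1.41-fold, to 1288 ± 75.4 against 1816 ± 96.1. Its partner Psme2 gave 0.09 (adjusted p = 0.55), and the activator Psme4 rose, to 1169 ± 106 against 784 ± 109 (adjusted p = 0.00052). Of 6 tested cytosolic peptidases, which trim or destroy peptides, 1 passed: Blmh fell 1.31-fold (adjusted p = 0.0025).

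Of 9 tested factors that bind or act at class I promoters, 2 rose, 1 fell and 6 did not pass (median 0.05). The NF-kappaB subunit Rela rose 1.32-fold (1929 ± 45.99 against 1458 ± 90.3, adjusted p = 0.00090). Rfx5, the X1-box subunit of RFX, gave 0.24 (adjusted p = 0.035), which did not pass in 6 of the 11 alternative fits, and Creb1 gave -0.27 (adjusted p = 0.013), which did not pass without Klf4-null replicate 2 or wild-type replicate 1. Ciita, the class II counterpart of Nlrc5, gave -0.09 near background and did not pass.

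Of 17 tested interferon receptor and signalling genes, 4 rose, 5 fell and 8 did not pass (median -0.07). The chains of the interferon-gamma receptor moved in opposite directions. Ifngr1, which binds the ligand, rose 1.79-fold, with 408 ± 24.4 in Klf4-null cells against 228 ± 20.7 in wild type (adjusted p = 3.6e-06), and Ifngr2 fell 1.76-fold, with 1049 ± 139 against 1835 ± 158 (adjusted p = 2.4e-05). Irf1, an activator of class I and Tap1 promoters, rose 1.91-fold on its brightest probe (adjusted p = 2.9e-06). The feedback inhibitor Socs3 fell 1.52-fold (adjusted p = 0.00018).

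Of 11 tested genes known to be induced by interferon-gamma outside antigen processing, 5 rose, 3 fell and 3 did not pass (median 0.15). The chemokine Cxcl10 rose at least 2.08-fold (adjusted p = 2.6e-08), the lectin-binding protein Lgals3bp rose 2.80-fold (adjusted p = 1.2e-06) and the GTPase Irgm1 rose 1.74-fold (adjusted p = 2.0e-05). Ube2l6, the conjugating enzyme for Isg15, fell 1.59-fold, with 65.1 ± 3.21 against 104 ± 5.60 (adjusted p = 1.3e-05).

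**Figure D4:**
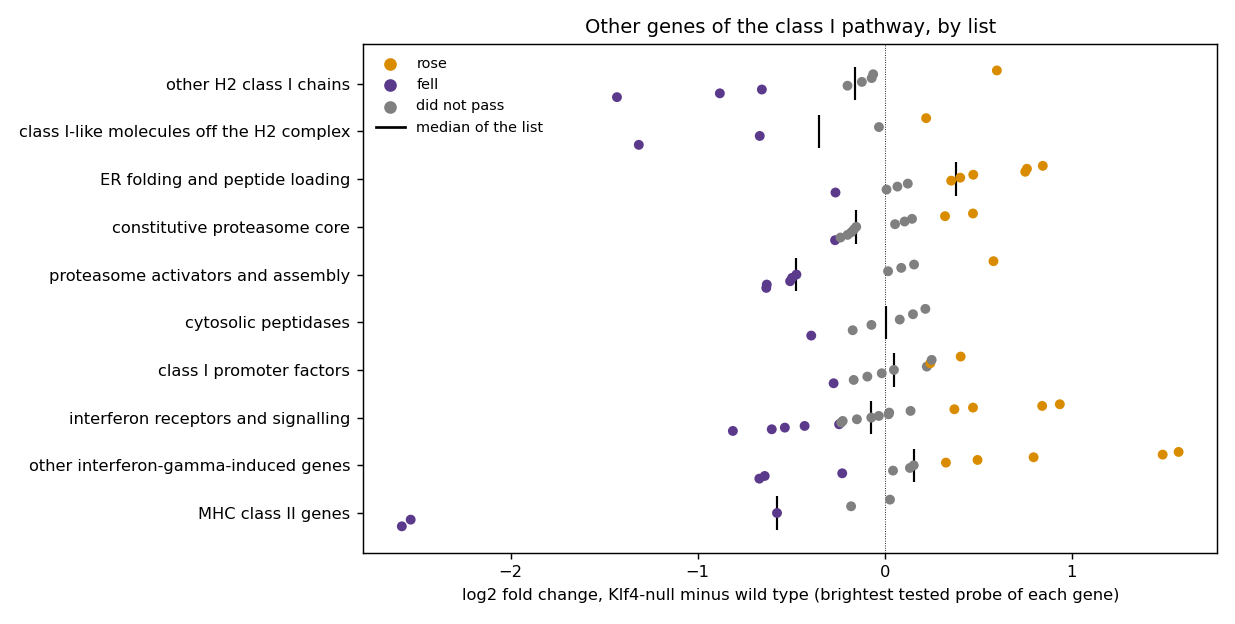
Log2 fold change (Klf4-null minus wild type) of the brightest tested probe of each gene in the 10 lists, 1 row per list. Orange genes rose, purple fell and grey did not pass, and the black line is the list's median. The list of folding and loading in the endoplasmic reticulum has a median of 0.38, and that of proteasome activators and assembly -0.47.

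Markers of the labelled cell type and of cells that carry much class I were read with the brightest probe of each. The 13 fibroblast markers summed to intensities of 48424 to 51197 in Klf4-null cells and 43616 to 46545 in wild type, a sum dominated by bright probes such as Vim (20678 ± 188 against 20725 ± 302) that does not show the single markers given above. Fap and Lum were above background on no array. The 14 macrophage markers summed to 1495 to 1602 in Klf4-null cells and 1053 to 1097 in wild type, and 9 of them, among them Ptprc, Adgre1, Aif1 and Tyrobp, were above background on no array. Within that list Cd14, which fibroblasts also express, rose 2.68-fold (adjusted p = 4.1e-09). Dendritic cell markers summed to 395 to 413 against 335 to 362, with Itgax, Flt3, Cd209a, Xcr1 and Clec9a above background on no array. Within that list Zbtb46 rose 1.96-fold on its brightest probe (adjusted p = 2.7e-07 by limma). Another Zbtb46 probe rose 1.45-fold and the remaining tested one did not pass. Lymphocyte markers summed to 368 to 385 against 326 to 347, with Cd3e, Cd3d, Cd2 and Nkg7 among those above background on no array. Among them Lck rose at least 1.65-fold, with 89.5 ± 8.73 against 44.7 ± 3.51, which is background (adjusted p = 9.0e-07 by limma). Endothelial markers summed to 410 to 433 against 423 to 438, with Tek and Tie1 above background on no array, and epithelial ones to 328 to 338 against 408 to 445, with Epcam, Krt8, Krt19 and Krt5 above background on no array and Krt14 at 41.1 against 143. The part of these differences in the class I values was not tested.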

How the data were processed

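Expression was measured in 3 Klf4-null and 3 wild-type samples, 1 Illumina bead array each, from column-purified, DNase-treated total RNA, per the labels. The deposited values are linear intensities, 1 per probe and array, which the authors had normalized between arrays: the medians were 51.7 to 51.8 on every array. The labels do not state the normalization method, the background subtraction or the scanner software. Another table's 12 columns (unnormalized signals, each with a detection p-value) could not be matched to a sample by name and were not used. Only its pairing of probes with symbols was taken, updated through the RefSeq gene table (GRCm38.p6, used for names, gene order and promoters): 25438 symbols were current, 8747 were unique synonyms and 12436 were kept. The number of arrays limits the precision.

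On log2 intensities, the floor of each array was the mode of its values plus the spread below the mode, mirrored, at the 95th percentile. Probes above it on at least 3 of 6 arrays were fitted with limma 3.58.1 (lmFit and eBayes, R 4.3.3) without covariates, and p-values are 2-sided and adjusted by Benjamini-Hochberg over all 21823 probes. Each log2 value is the Klf4-null mean minus the wild-type mean. A gene in a list is represented by its brightest tested probe. Folds written as at least N-fold set the brighter group against a group with no array above the floor, each array of which counted at its floor or at its signal if that was higher. No background was subtracted in the fit over all probes. The size of a plain fold is therefore uncertain where a group lay just above the floor, as for H2-DMb2, H2-M3 and Mr1. The fit was tested on simulated data.

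The 10 genes and all lists were chosen with earlier results of these data known, the alternatives with them. Named are all probes of the 10 genes, Klf4, up to 4 passing genes with the largest change in each list, the counterparts Psmb5, Psmb6 and Psmb7, and passing neighbours. Calr, Erap1, Tapbpl, Pdia3, Sec61b, Psme1, Psme2, Psmg1, Ide, Ciita, Nfyb, Cd274, H2-T23, Cd14, Thy1, Pdgfra, Col3a1, Col1a1, Col5a1, Col1a2, Vim, Zbtb46, Lck, Cdh5, Krt14 and the neighbours that did not pass were named after their values were seen, as were the motifs and their spacing. Alternatives were quantile normalization, normexp correction with an offset of 50, no or a stricter filter, a replicate block, each array left out, and every probe counted. Quantile normalization alone could change little, because the deposited arrays already had the same lowest value, 25.8, and nearly the same median. With it 8480 probes passed. Some genes counted in the lists are not reported by name here. No set test was run, and no probe sequences were used here.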

Additional observations from a re-analysis of the deposited data

How the results depend on the processing

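The 7 class I probes past the threshold were lower in Klf4-null cells under each of the 11 alternatives that measured them, and 120 of 122 recomputed values of all 15 probes moved by less than 1 SD between replicates. The exceptions came with quantile normalization after a normexp correction (offset 50), which gave -2.998 for Tap2 and -1.11 for Psmb9. The filters and the replicate block leave a log2 difference unchanged, and quantile normalization alone hardly changed it. Leaving out 1 of 3 arrays shifts it by less than 1 SD and cannot reverse groups that do not overlap. The count of 120 was therefore largely fixed in advance and does not measure stability. The class I probes past the threshold numbered 7 with each array left out, 5 when every array had to be above background, which excludes Tap2 and Psmb9 by construction, and 8 without a filter, where Tap1 was added. Over all probes 8483 passed, and leaving out 1 array gave 7174 to 8248. The other pathway genes numbered 47, with 40 to 52 when 1 array was left out, and the neighbours 7 in each such fit. The neighbours fell to 4 when every array had to be above background, which excludes 3 of them by construction. Deviations of same-numbered replicates correlated at -0.02, 0.05 and -0.22, and those of differently numbered ones at -0.26 to 0.27. With 3 arrays per group these values cannot decide whether the numbers pair the samples, and the labels do not say. With the replicate number as a block, 8051 probes, 43 pathway genes, 7 neighbours and 7 class I probes passed. Of 444 recomputed fold changes of 41 other named probes, 427 stayed on their side of the threshold, and 17 no longer passed, those of Cd1d1, Rfx5, Psmb2 and Creb1. Signal over background limits Tap1, Psmb8 and Nlrc5. It also limits, to a lesser degree, Tapbp (68.2 to 79.3 over all arrays) and H2-K1 in Klf4-null cells (67.6 to 92.8).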

Other observations

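Several genes near the class I pathway gave probes that disagreed, and the lists above read only the brightest. H2-T23, the nonclassical chain known as Qa-1, gave 133 ± 5.83 in Klf4-null cells and 144 ± 6.25 in wild type on its brightest probe (SD, n = 3 each, log2 fold change -0.12, adjusted p = 0.26 by limma). Its other 2 tested probes rose, one at least 1.91-fold, with 103 ± 3.97 against 44.5 ± 2.86, which is background, and the other 1.40-fold. The insulin-degrading peptidase Ide rose 6.30-fold on 1 probe, with 360 ± 10.8 against 57.6 ± 7.88 (adjusted p = 4.1e-11), while its brightest probe (log2 -0.07) and the remaining one (log2 0.25) did not pass. For Sec61b the brighter probe fell, with 2181 ± 87.4 against 2617 ± 84.6 (adjusted p = 0.014), and the other rose 1.24-fold (adjusted p = 0.015). For Nfyb, a subunit of the Y-box factor, the brighter probe gave 0.22 (adjusted p = 0.054) and the other fell 1.23-fold (adjusted p = 0.0067). Both tested probes of Psme1, of Mr1 and of H2-Q5 passed in the same direction.

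Cd274, the ligand of the inhibitory receptor of T cells and inducible by interferon-gamma, fell at least 1.22-fold, to 42.4 ± 3.27 in Klf4-null cells, which is background, against 66.1 ± 2.84 in wild type (adjusted p = 2.7e-05).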
